A study of Mus musculus with 8 samples.

Results

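Keratins are the intermediate filament proteins of epithelial cells. A filament is built from pairs of an acidic type I keratin and a basic or neutral type II keratin, so epithelia make them in partner sets. Simple, single-layered epithelia use Krt8 with Krt18 and add Krt7, Krt19 or Krt20. Basal cells of layered epithelia and the myoepithelium of the mammary gland use Krt5 with Krt14. Maturing epidermis turns to Krt1 with Krt10, and the hair follicle has a large set of its own for the shaft and for the inner root sheath, the sleeve around the growing hair.

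The keratin genes described here are those whose symbol is Krt followed only by digits. There were 48 of them among 19937 named genes on the array, each with 1 probe set of its own, and all 48 passed the study's limit on mean signal. They were grouped as 5 simple epithelial, 4 basal, 15 epidermal and other stratified, and 23 hair, inner root sheath and nail keratins, with the keratin-like Krt222 left without a class. Krt6a, Krt6b, Krt33a and Krt33b carry a letter in their symbol and are given as neighbours of the family, not as members.

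The values come from 8 tumors of 4T1, a mouse mammary carcinoma line, implanted into the fourth mammary gland of BALB/c mice and grown for 18 days. For 4 tumors the gland had received a single local X-ray dose of 20 Gy before implantation (preirradiated), and in the other 4 it was left untreated (nonirradiated). All tumors came from the same cell line and strain, and the sources used here give no age for the mice. Nothing in the labels ties each tumor to a mouse of its own, so p-values measure the spread between these tumors. Whole tumor tissue was measured, which holds the implanted cells together with host tissue, and a smaller share of a cell type cannot be told apart from less RNA per cell.

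Values are log2 signals from robust multi-array averaging (RMA), in which a difference of 1.0 is a factor of 2.0. Each gene is compared with itself across tumors, since signals of different probe sets share no common scale. Group values are mean ± SD (n = 4 each), and differences are preirradiated minus nonirradiated. As a guide to low signal, 1015 olfactory receptor genes had a median signal of 4.72 and a 95th percentile of 5.47, and the 95th percentile of their range over the 8 tumors was 0.30. Of the 48 keratins 28 had a mean above 5.47 and 27 ranged over more than 0.30. Pairs of arrays correlated at 0.991 to 0.9961.

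Markers of epithelium were measured first, to check the label of a mammary epithelial carcinoma. Krt8 lay between 12.45 and 12.63 and Krt18 between 11.80 and 12.03 in every tumor. The epithelial adhesion protein Epcam lay between 9.07 and 10.16 and E-cadherin, Cdh1, between 9.35 and 10.27. The milk protein genes Csn2 and Wap lay between 4.97 and 5.07 and between 5.75 and 5.94, with ranges of 0.09 and 0.19. Epcam and Cdh1 were both highest in preirradiated tumor 2.

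No keratin passed correction for multiple testing. By limma with Benjamini-Hochberg adjustment over all 34738 probe sets tested, 0 keratins had an adjusted p under 0.05, as did 0 of all named genes, and the smallest adjusted p among keratins was 0.62. At an unadjusted p of at most 0.05 there were 2 keratins, Krt7 and Krt14, both higher in preirradiated tumors, against 5.66% of all named genes (2.39% higher and 3.27% lower). The filter the study describes asks for a mean signal of 4.0 or more, an unadjusted p no greater than 0.05 and a log2 change of 0.4 or more. It was passed, taking the change in either direction, by 1 keratin as higher (Krt14) and by 0 as lower, against 0.346% and 0.14% of named genes. The count of 1 became 2 without nonirradiated tumor 4 or without preirradiated tumor 1, and 3 without preirradiated tumor 3, with Krt7 and then Krt19 added. In these settings, in that order, 0.466%, 0.301% and 0.421% of named genes passed the filter in either direction. The median difference over the 48 keratins was 0.013, against -0.004 over all named genes, and 27 of 48 were higher, where 47.4% of all named genes were.

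**Figure D1:**
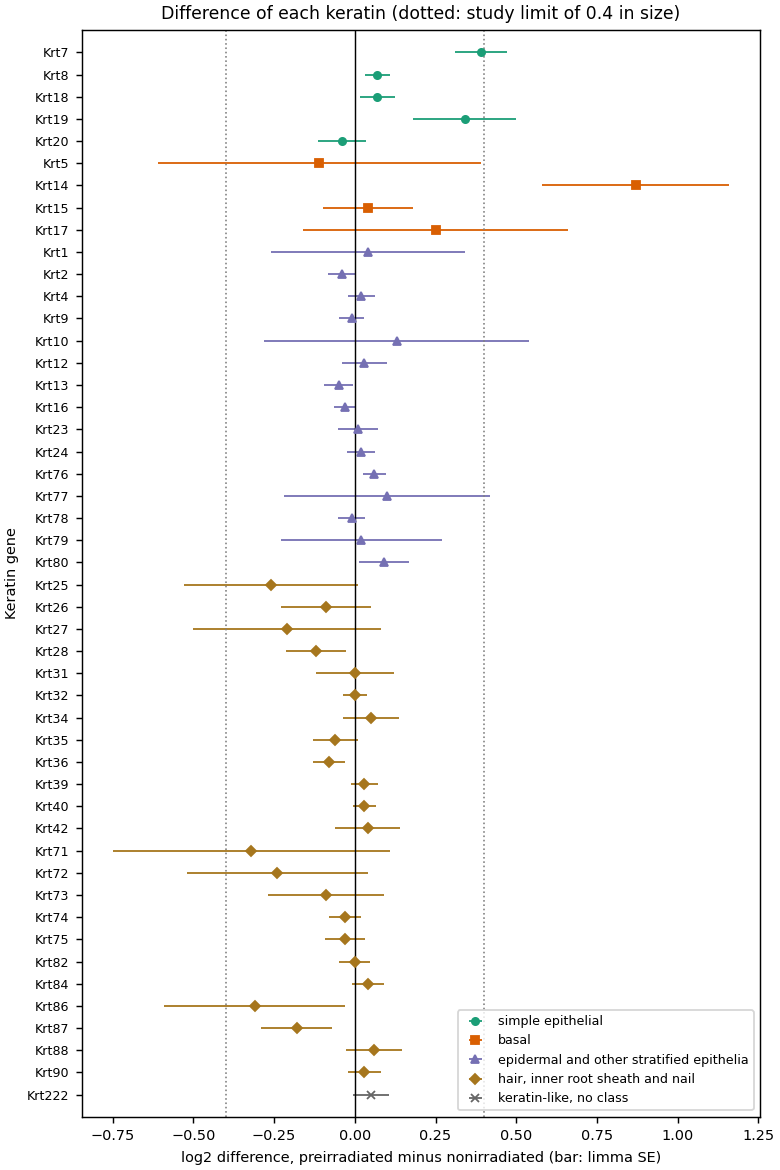
The log2 difference of each of the 48 keratins, preirradiated minus nonirradiated, on the x axis, with the limma standard error as a bar and genes on the y axis grouped by class. Krt14 at 0.87 is the only point outside the dotted lines of 0.4 in size, Krt7 at 0.39 lies just inside, and the widest bar is that of Krt5 (SE 0.50).

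Among the simple epithelial keratins, Krt7 stood apart between the groups while Krt8 and Krt18 differed little. Krt7, the type II keratin of ductal and glandular epithelia (probe set 10427052), was 10.23, 10.26, 10.35 and 10.48 in nonirradiated tumors 1 to 4 and 10.64, 10.86, 10.58 and 10.81 in preirradiated tumors 1 to 4. Every preirradiated tumor lay above every nonirradiated tumor, the only such case among the 48 keratins, where 3.64% of named genes showed such a separation in either direction and 1.7% as higher. The means were 10.72 ± 0.13 against 10.33 ± 0.11, a log2 difference of 0.39 (SE 0.081) or 1.31-fold. The limma p was 0.00118 before adjustment and 0.62 after. An exact two-sided permutation test over the 70 assignments of tumors to groups gave 0.0286, the smallest p that 4 against 4 allows. Krt7 missed the study's filter by its size alone, and passed it in 6 of 19 alternative settings, with a difference of 0.34 to 0.50 over all of them.

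Krt8, the type II keratin shared by all simple epithelia, was 12.45, 12.52, 12.55 and 12.57 in nonirradiated and 12.56, 12.60, 12.59 and 12.63 in preirradiated tumors. The groups overlapped by 1 tumor and the whole range was 0.18. The difference was 0.07 (SE 0.039, limma p 0.11, exact permutation p 0.0571). Krt18, its type I partner, was 11.80, 11.88, 11.89 and 12.03 against 11.98, 11.96, 11.91 and 12.02, a difference of 0.07 (SE 0.053). Nonirradiated tumor 4 had the highest Krt18 value of all 8, and without it the difference was 0.12 with an unadjusted limma p of 0.0352. Array medians were 5.937 to 5.977 in nonirradiated and 5.982 to 5.996 in preirradiated tumors. With the arrays centred on the median, Krt8 differed by 0.036 (unadjusted limma p 0.387) and Krt18 by 0.039 (0.503).

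Krt19, the short type I keratin of ducts and glands, was 6.91, 7.13, 7.34 and 7.24 in nonirradiated and 7.59, 7.90, 7.13 and 7.34 in preirradiated tumors. Preirradiated tumors 1 and 2 lay above all nonirradiated tumors, and tumors 3 and 4 lay no higher than the highest of them. The difference of 0.34 (SE 0.16) had a limma p of 0.0709 before and 0.869 after adjustment, and an exact permutation p of 0.1429. Without preirradiated tumor 3 it was 0.46 with an unadjusted limma p of 0.0162, which met the study's filter. Krt20, a type I keratin of gut and urothelium, stayed between 5.00 and 5.34 with a difference of -0.04 (SE 0.075), and its mean was below the 95th percentile of the olfactory receptor genes. Across the class the median difference was 0.073, with 4 of 5 higher.

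**Figure D2:**
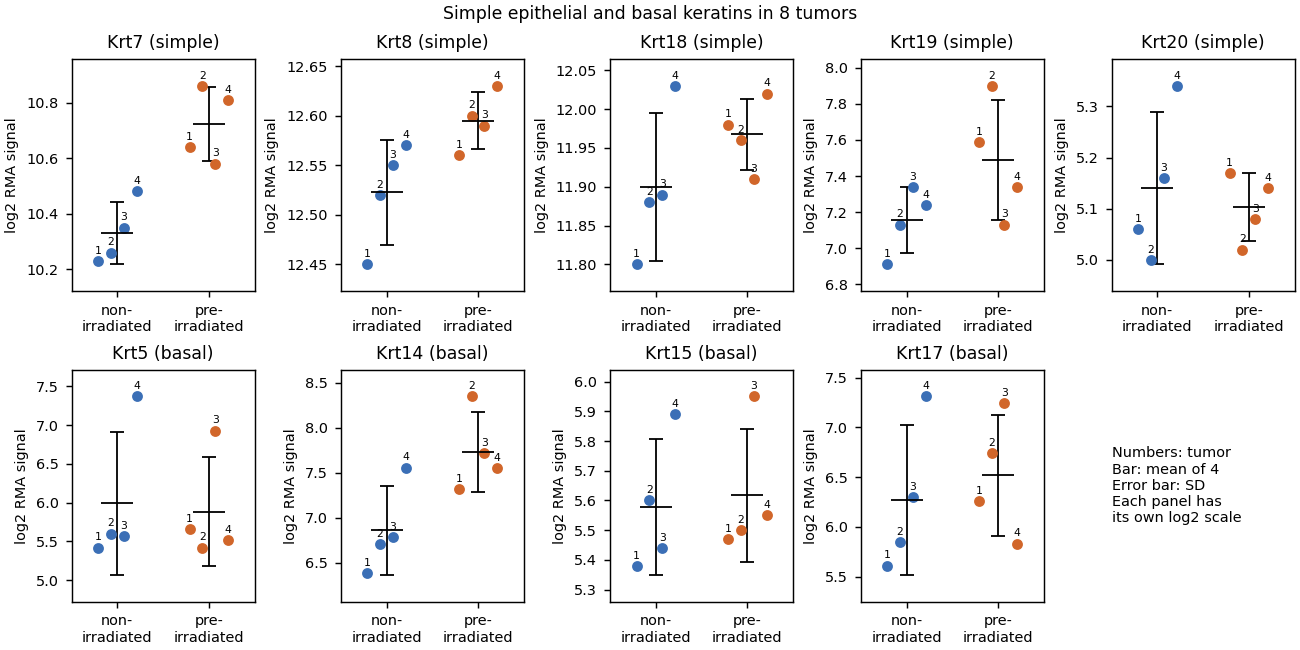
Log2 RMA signal (y axis, a separate scale in each panel) of the 5 simple and 4 basal keratins in nonirradiated and preirradiated tumors (x axis). Points are tumors with their number, the horizontal bar is the mean of 4 and the error bar the SD. Krt7 is the only panel without overlap between groups, and Krt5, Krt15 and Krt17 show nonirradiated tumor 4 and preirradiated tumor 3 on top.

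Basal keratins did not behave as a set. Krt14, the type I keratin of basal and myoepithelial cells (probe set 10391052), was 6.39, 6.71, 6.79 and 7.56 in nonirradiated and 7.32, 8.35, 7.72 and 7.55 in preirradiated tumors. All preirradiated tumors lay above nonirradiated tumors 1 to 3, while nonirradiated tumor 4 lay within the preirradiated range. The means were 7.73 ± 0.44 against 6.87 ± 0.50, a difference of 0.87 (SE 0.29) or 1.82-fold, the largest of the family in either direction. The limma p was 0.0155 before and 0.79 after adjustment, and the exact permutation p was 0.0857. Krt14 passed the study's filter in all 19 alternative settings, with differences of 0.66 to 1.10.

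Krt5, the type II partner of Krt14, showed no such pattern. It was 5.42, 5.60, 5.57 and 7.37 in nonirradiated and 5.66, 5.42, 6.93 and 5.52 in preirradiated tumors, so that 1 tumor of each group, nonirradiated 4 and preirradiated 3, stood far above the rest. The difference was -0.11 (SE 0.50, limma p 0.834), and it was 0.35 without nonirradiated tumor 4. Preirradiated tumor 2 had the highest Krt14 value of all tumors and, with nonirradiated tumor 1, the lowest Krt5 value.

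Krt17, a type I keratin induced in wounded and proliferating epithelium and made in the hair follicle, was 5.61, 5.85, 6.30 and 7.31 against 6.26, 6.74, 7.24 and 5.83. Its difference was 0.25 (SE 0.41, limma p 0.568). Krt15, a type I keratin of basal cells and hair follicle stem cells, was 5.38, 5.60, 5.44 and 5.89 against 5.47, 5.50, 5.95 and 5.55, a difference of 0.04 (SE 0.14). In both genes nonirradiated tumor 4 and preirradiated tumor 3 were the highest of the 8. Krt16, which is close in sequence to Krt14 and Krt17, stayed between 4.92 and 5.02, and Krt42, another close relative, between 5.81 and 6.32. The letter-suffixed keratins were lower in 4 of 4 cases, none with an unadjusted p of at most 0.05. The type II partners of Krt16 and Krt17 in activated skin, Krt6a and Krt6b, lay between 4.86 and 5.16 and between 4.50 and 4.77. The basal class had a median difference of 0.144, with 3 of 4 higher.

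Markers of other cell types moved with the groups in part. For comparison, 47.4% of all named genes were higher and 5.66% had an unadjusted limma p of at most 0.05. The mean of 17 skeletal muscle genes was 5.81 to 6.05 in nonirradiated tumors, 8.49 and 9.90 in preirradiated tumors 1 and 3, and 5.86 and 5.99 in preirradiated tumors 2 and 4. All 17 were higher, and 0 had an unadjusted limma p of at most 0.05. The mean of 12 fibroblast genes was 9.41 to 9.71 in nonirradiated and 9.83 to 10.12 in preirradiated tumors, and 11 of the 12 were higher. Of the 12, 7 had an unadjusted limma p of at most 0.05, all as higher. The study's filter was passed by 5 of them, against 0.346% of all named genes as higher. Krt7 and Krt14 were highest in preirradiated tumor 2, which was low in muscle genes. Without preirradiated tumors 1 and 3 Krt7 differed by 0.50 and Krt14 by 1.08, and both passed the study's filter together with Krt19. These keratins are 6.25% of the 48, against 0.291% of all named genes over the same tumors. The tumors left out had the lowest preirradiated Krt7 values and were chosen with earlier results known, so this share is a description. Of 10 macrophage genes 10 were lower, with list means of 10.26 to 10.39 in nonirradiated and 10.09 to 10.27 in preirradiated tumors. An unadjusted limma p of at most 0.05 was found for 4 of the 10, and 0 passed the study's filter. The mean of 12 adipocyte genes was 8.33 in preirradiated tumor 1 and 6.65 to 7.26 in all others. Of these 12, 11 were higher and 2 had an unadjusted limma p of at most 0.05. Of 15 luminal mammary genes, a list that includes Krt8, Krt18 and Krt19, 11 were higher. These keratins were among the 11, so the list is not independent of the family. List means were 7.97 to 8.10 in nonirradiated and 7.97 to 8.35 in preirradiated tumors. Of the 15, 1, the tight junction gene Cldn7, had an unadjusted limma p of at most 0.05 (difference 0.28, SE 0.11).

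Of 11 basal and myoepithelial genes, a list that includes Krt5, Krt14 and Krt17, 10 were higher and 4 had an unadjusted limma p of at most 0.05. Over all named genes 47.4% were higher, 5.66% had such a p (2.39% as higher) and 1.7% separated without overlap as higher. The 4 were Krt14 and the smooth muscle contractile genes Acta2, Cnn1 and Myh11, which myoepithelial cells, vessel walls and activated fibroblasts all make. Acta2 was 10.10, 9.91, 10.05 and 10.11 in nonirradiated and 10.59, 10.54, 10.47 and 10.27 in preirradiated tumors, a difference of 0.43 (SE 0.077) without overlap. Cnn1 differed by 0.28 (SE 0.090) and Myh11 by 0.17 (SE 0.051), both without overlap. Other members of the list did not separate. The contractile gene Mylk was 6.15 to 6.37 in nonirradiated and 6.25 to 6.45 in preirradiated tumors, a difference of 0.02 (SE 0.067). Trp63, the basal cell regulator p63, was 6.09 to 6.26 in nonirradiated and 6.18 to 6.35 in preirradiated tumors, the cadherin Cdh3 was 5.41 to 5.64 and 5.50 to 5.66, and the oxytocin receptor Oxtr was 5.30 to 5.52 and 5.39 to 5.49. The list means were 6.30 to 6.79 and 6.50 to 6.83. The part of these other cell types in the keratin differences was not tested.

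The strongest variation in the family lay between single tumors, not between groups. Of 48 keratins 20 (41.7%) had nonirradiated tumor 4 and preirradiated tumor 3 above all 6 other tumors, against 2.08% of all named genes. With a gap of at least 0.5 to the next tumor there were 7 such keratins (Krt1, Krt5, Krt10, Krt17, Krt71, Krt77 and Krt79) among 21 such genes in all, or 0.105% of named genes. This pair of tumors was known from earlier results of these data, so the counts are a description. By class the pattern was found in 0 of 5 simple, 3 of 4 basal, 5 of 15 epidermal and 12 of 23 hair keratins. With the gap of at least 0.5 the counts were 0, 2, 4 and 1. Most of the hair keratins thus had it by a smaller margin, such as Krt82 at 5.84 in both tumors against 5.83.

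**Figure D3:**
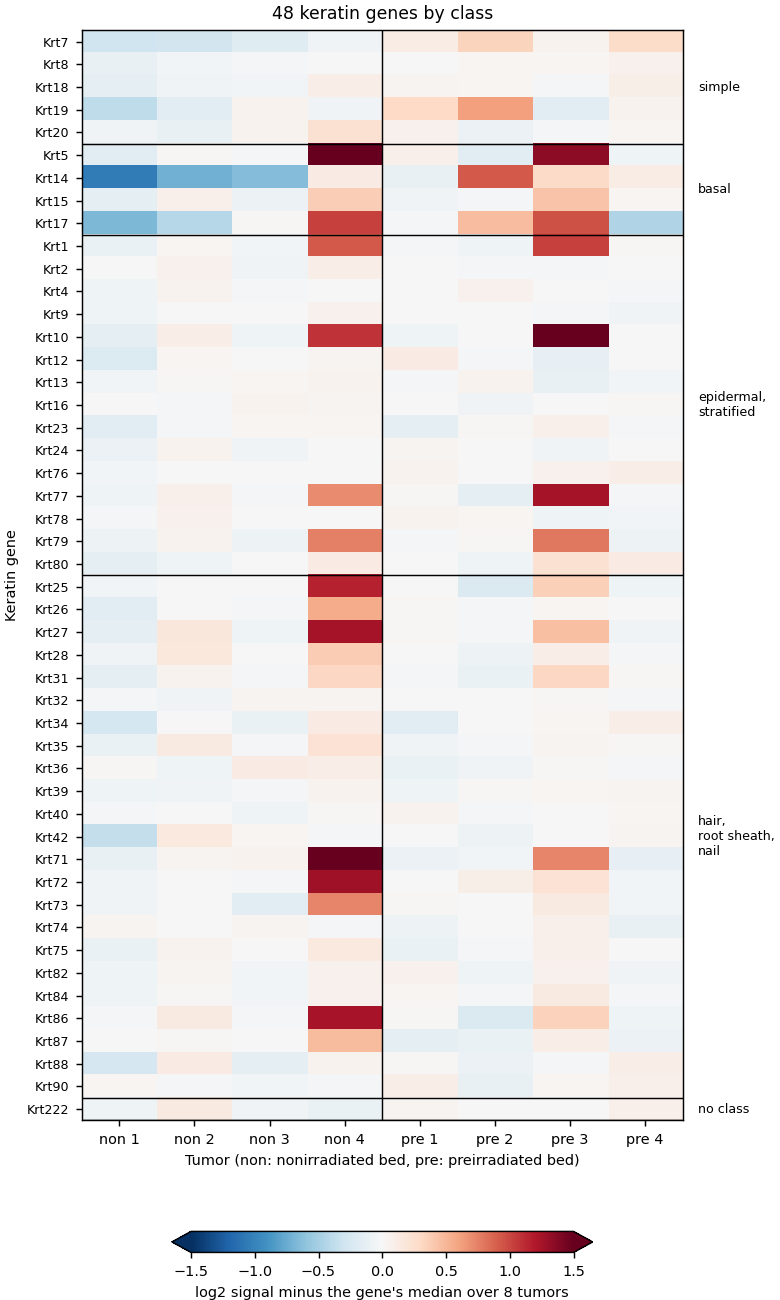
Each row is 1 of the 48 keratins and each column a tumor. Colour gives the log2 signal minus the gene's median over the 8 tumors, blue below and red above it. The deepest red gathers in nonirradiated tumor 4 and preirradiated tumor 3 for basal, epidermal and hair keratins.

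The epidermal keratins that varied did so together. Krt10, the type I keratin of maturing epidermis, was 6.07, 6.31, 6.14 and 7.29 in nonirradiated and 6.15, 6.20, 7.76 and 6.22 in preirradiated tumors. Krt1, its type II partner, was 5.61, 5.74, 5.67 and 6.63 against 5.69, 5.65, 6.74 and 5.73. Only nonirradiated tumor 4 and preirradiated tumor 3 stood out in either gene, and the group differences were 0.13 (SE 0.41) and 0.04 (SE 0.30). Krt77, a type II keratin of sweat gland ducts and skin, was 6.55 and 7.09 in these tumors and 5.69 to 5.92 in the others. Krt79, a type II keratin of the hair canal and sebaceous gland, was 6.44 and 6.48 against 5.61 to 5.74, and Krt80, found more widely in epithelia, was 7.31 and 7.42 against 7.05 to 7.31.

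The other 10 members of this class did not follow. Of these, 9 ranged over no more than the olfactory receptor genes' limit of 0.30, among them Krt2 of late epidermis (4.95 to 5.11), Krt4 and Krt13 of mucosal linings (4.92 to 5.06 and 5.02 to 5.18), Krt9 of the foot pad (4.92 to 5.05) and Krt76 of the palate (5.02 to 5.16). The exception was Krt12, the corneal keratin, at 5.72 to 6.05, with its highest value in preirradiated tumor 1. In this class 0 of 15 passed an unadjusted p of 0.05, the median difference was 0.017 and differences ran from -0.05 to 0.13.

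Of the 23 hair keratins 14 had their highest value in nonirradiated tumor 4 and 3 in preirradiated tumor 3. Krt71, a type II keratin of the inner root sheath, was 5.31, 5.47, 5.48 and 7.23 in nonirradiated and 5.34, 5.38, 6.16 and 5.30 in preirradiated tumors. Some of its relatives in the same sheath were high in the same tumors. Krt25 was 6.34 in nonirradiated tumor 4, 5.54 in preirradiated tumor 3 and at most 5.19 elsewhere. In the same order Krt27 was 6.83, 6.03 and at most 5.75, Krt72 was 6.43, 5.38 and at most 5.25, and Krt73 was 6.28, 5.68 and at most 5.57. Krt26 was 5.77, 5.25 and at most 5.23. The sheath keratins Krt28 and Krt74 did not follow: Krt28 was 5.25 in nonirradiated tumor 4 but 4.96 in preirradiated tumor 3, below 5.02 in nonirradiated tumor 2, and Krt74 was 5.12 in nonirradiated tumor 4, within its range of 5.04 to 5.23. Among keratins of the hair shaft, Krt86 was 6.41, 5.52 and at most 5.30, and Krt87 was 6.91, 6.53 and at most 6.45. Krt31 was 5.43 in both tumors and at most 5.17 elsewhere. Krt33a, a shaft keratin outside the symbol rule, was 7.64 and 6.35 against at most 5.73, and its neighbour Krt33b was 8.27 and 7.97 against 7.65 to 7.96.

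Because the high tumor in each group was nonirradiated 4 or preirradiated 3, the group differences of these genes were small against their errors. Krt71 differed by -0.32 (SE 0.43), Krt86 by -0.31 (SE 0.28), Krt25 by -0.26 (SE 0.27), Krt72 by -0.24 (SE 0.28) and Krt27 by -0.21 (SE 0.29). In the hair class 0 of 23 passed an unadjusted p of 0.05 by limma, 14 were lower and the median difference was -0.035. Of the 23, 9 ranged over no more than 0.30, including Krt32 (4.99 to 5.09) and Krt40 (5.27 to 5.39). The keratin-like Krt222 ranged from 5.22 to 5.46.

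The classes differed in which of these tumors was higher. Among the 12 hair keratins with both tumors on top, nonirradiated tumor 4 exceeded preirradiated tumor 3 in 10. Preirradiated tumor 3 was the higher in 2, Krt84 (5.45 against 5.37) and, by less than the rounding, Krt31. Krt31 (5.43 in both) and Krt82 (5.84 in both, counted among the 10) were level at 2 decimals. Among the 5 epidermal keratins, preirradiated tumor 3 was the higher in all 5 (Krt1, Krt10, Krt77, Krt79 and Krt80). Of the 3 basal keratins, Krt5 and Krt17 were higher in nonirradiated tumor 4 and Krt15 in preirradiated tumor 3. These are 2 tumors, so the contrast has no replicate check.

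**Figure D4:**
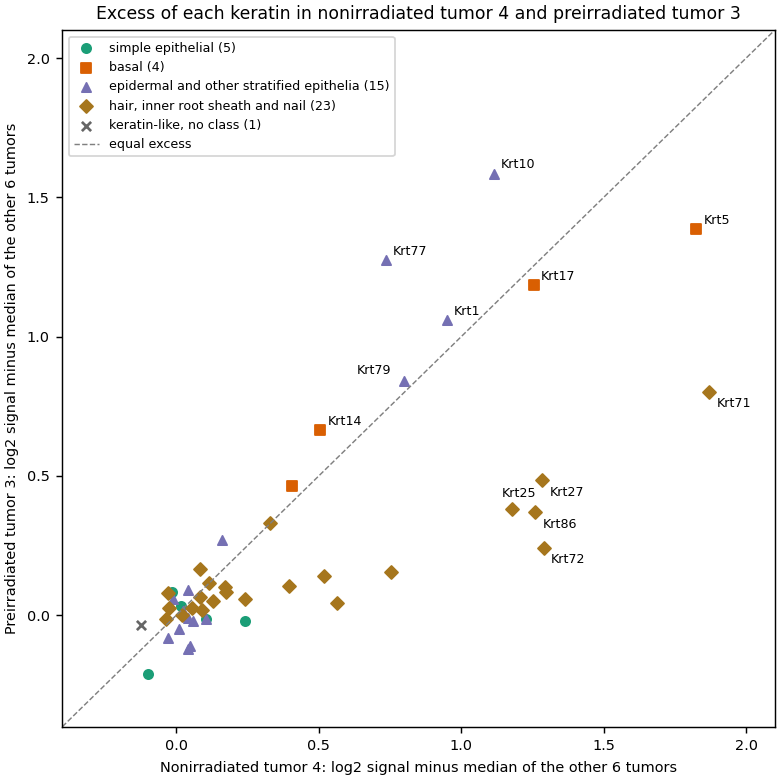
For each of the 48 keratins, the log2 signal of nonirradiated tumor 4 (x axis) and of preirradiated tumor 3 (y axis) is shown as the excess over the gene's median in the other 6 tumors. Symbols mark classes and the dashed line equal excess. The epidermal keratins Krt10, Krt77 and Krt1 lie above the line, and the hair keratins Krt71, Krt27, Krt25, Krt86 and Krt72 lie below it.

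Genes that work with the skin and hair keratins followed the same tumors. Of 28 measured genes of hair follicle structure and regulation, 19 (67.9%) had both tumors on top, and in 18 of these nonirradiated tumor 4 was the higher. With a gap of at least 0.5 there were 4, Krtap7-1, Krtap8-1, Krtap3-1 and Krtap6-2 (5.41 and 5.40, at most 4.88 elsewhere). Krtap7-1, a keratin-associated protein that embeds the filaments of the hair shaft, was 10.43 in nonirradiated tumor 4 and 8.96 in preirradiated tumor 3, and 5.31 to 5.58 in the others. Krtap8-1 was 9.29 and 8.16 against 5.18 to 5.29, and Krtap3-1 was 9.13 and 8.53 against 7.40 to 7.82. Krtap3-3, with a gap below 0.5, was 6.93 and 5.91 against 5.29 to 5.48. Krtap15 was 6.72 in nonirradiated tumor 4 and 4.68 to 4.86 in all others. Of 28 measured genes of the cornified envelope and late epidermal differentiation, 17 (60.7%) had both tumors on top, and 3 had them on top by at least 0.5. The envelope protein Sprr1a was 8.46 and 7.92 against 5.82 to 6.08, loricrin, Lor, was 5.70 and 6.12 against 4.86 to 5.14, and Lce1a1 was 5.60 and 6.03 against 4.97 to 5.08. Lce1c (5.69 and 5.90, at most 5.40 elsewhere) and the protease Asprv1 (7.60 and 7.81, at most 7.52 elsewhere) had the same tumors on top by smaller margins.

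In neither list did a gene pass the study's filter. The hair list had 1 gene at an unadjusted limma p of at most 0.05, Tchhl1, with a difference of 0.13 (SE 0.047), and the envelope list had 0, against 5.66% of all named genes. Their median differences were -0.057 and -0.008. Gland and surface markers of skin, 13 genes, had list means of 5.50 to 5.72 in nonirradiated and 5.53 to 5.75 in preirradiated tumors, with nonirradiated tumor 4 and preirradiated tumor 3 the highest of their groups and 7 of the 13 genes with both tumors on top. Of these 7, Lor, Flg2, Krtdap and Sbsn also stand in the cornified envelope list, so the lists are not independent, and the others were Scd3, Elovl3 and Fa2h. How much skin tissue each sample held was not measured, and its part in the keratin values was not tested.

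Leaving out both of these tumors gave larger differences for Krt14, Krt7, Krt19 and Krt18. Krt14 then differed by 1.10, Krt7 by 0.49, Krt19 by 0.49 and Krt18 by 0.13, each with an unadjusted limma p of at most 0.05, and Krt7, Krt14 and Krt19 passed the study's filter. That is 3 of 48 keratins (6.25%), against 0.502% of all named genes over the same 6 tumors. The pair left out was chosen with its high skin and keratin values known. Nonirradiated tumor 4 was the highest of its group for Krt7, Krt14 and Krt18. Preirradiated tumor 3 was the lowest of its group for Krt7, Krt18 and Krt19. Leaving them out widens those differences by construction, so the p-values and the share are descriptions. Krt8 differed by 0.087 (unadjusted limma p 0.129), Krt20 by 0.037 (0.598) and Krt5 by 0.0042 (0.961). The groups did not overlap for Krt7, Krt8, Krt14, Krt18 and Krt19 as higher and for Krt87 as lower, 6 of 48 (12.5%), but separation is more frequent with 3 tumors a group and was found for 9.13% of all named genes, so this count lies near the background.

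To show the regulatory sequence next to these patterns, the 100 bases before the annotated start are given for Krt7, which separated the groups, for Krt5, for the epidermal Krt10 and for the hair sheath keratins Krt25 and Krt71. They were taken from RefSeq, build GRCm38.p6, and are written 5′ to 3′ on the gene's strand. Capitals mark the letters TATAAA or ATAAAAG, which occur in TATA boxes, searched on both strands. Counted from the annotated start, the first marked letter lies at -29 in Krt5, -26 in Krt10, -30 in Krt25 and -40 in Krt71. In Krt7 it lies at -7, so that the marked letters run up to the annotated start. Whether any of them act as a TATA box was not tested. The motifs can overlap, and ATAAAAG was chosen after the sequences had been seen.
Krt7, chr15:101412303-101412402, plus strand: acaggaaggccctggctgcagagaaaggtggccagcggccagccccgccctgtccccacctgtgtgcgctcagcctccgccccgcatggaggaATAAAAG
Krt5, chr15:101712906-101713005, minus strand: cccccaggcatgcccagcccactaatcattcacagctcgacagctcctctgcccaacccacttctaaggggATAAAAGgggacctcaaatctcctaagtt
Krt10, chr11:99389365-99389464, minus strand: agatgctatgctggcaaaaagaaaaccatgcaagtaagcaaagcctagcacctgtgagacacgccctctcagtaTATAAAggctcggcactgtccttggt
Krt25, chr11:99322952-99323051, minus strand: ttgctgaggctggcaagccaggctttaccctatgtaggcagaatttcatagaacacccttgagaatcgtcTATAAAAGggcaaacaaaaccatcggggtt
Krt71, chr15:101743098-101743197, minus strand: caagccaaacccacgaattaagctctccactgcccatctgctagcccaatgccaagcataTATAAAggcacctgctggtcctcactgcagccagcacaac

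All 5 windows held at least 1 of the motifs, but in Krt7 and Krt5 only ATAAAAG, chosen with the sequences seen, so this was not a test. The windows of Krt14, which passed the study's filter, and of Krt8 and Krt18 are not shown and held neither motif. Of the 48 keratins 35 had a promoter in the RefSeq table, and 21 of these (60.0%) held TATAAA or ATAAAAG in this window, against 6.80% of 32851 promoters of the same length. TATAAA, with or without the other motif, was found in 14 of 35 (40.0%) against 5.56%. ATAAAAG, counted in the same way, was found in 12 of 35 (34.3%) against 2.21%. Each keratin was counted with 1 promoter, while the 32851 promoters were not reduced to 1 per gene. Krt7, which separated the groups, and Krt5, Krt10, Krt25 and Krt71, which did not, all held one, and a match is a description of the letters only.

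The keratin genes lie in tight clusters. In the RefSeq gene order 25 of the measured members lie on chromosome 11 and 23 on chromosome 15, where Krt18 stands beside Krt8 at the end of the type II genes. The members with nonirradiated tumor 4 and preirradiated tumor 3 on top were 7 of 25 on chromosome 11 and 13 of 23 on chromosome 15. Some were neighbours in the order of measured keratins: Krt25, Krt26 and Krt27 on chromosome 11, and Krt75, Krt5 and Krt71 on chromosome 15. Others stood beside genes that did not share the pattern, such as Krt10 beside Krt12 and Krt79 beside Krt78.

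Partner keratins were then compared across tumors in 5 type I and type II pairs. For Krt18 and Krt8 Pearson's r was 0.84 over the 8 tumors (exact permutation p 0.0086, adjusted over the 5 pairs 0.043) and Spearman's rho was 0.74 (exact permutation p 0.046). Without nonirradiated tumors 1 and 4, the farthest from the median of Krt18, r was 0.77 (exact permutation p 0.081), and over deviations from the group means it was 0.79. Over the 8 tumors Krt8 ranged over 0.18 and Krt18 over 0.23. Both ranges lay below the olfactory receptor genes' limit on range, so this correlation rests on small variation. For Krt19 and Krt7 r was 0.77 (exact permutation p 0.022, adjusted 0.053) and rho 0.81 (exact permutation p 0.022). It was 0.44 (exact permutation p 0.40) without nonirradiated tumor 1 and preirradiated tumor 2, so this relation rests on those tumors. For Krt19 and Krt8 r was 0.58 and rho 0.57 (exact permutation p 0.13 and 0.15, the first adjusted 0.17), and r was 0.094 without the same 2 tumors.

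Krt14 with Krt5 and Krt10 with Krt1 could not be pooled over 8 tumors. Nonirradiated tumor 4 and preirradiated tumor 3 formed a cluster of their own in Krt5, Krt10 and Krt1, though not in Krt14. Over the other 6 tumors r was -0.21 for Krt14 and Krt5 (rho 0.029, exact permutation p for r 0.70, adjusted 0.70) and 0.85 for Krt10 and Krt1 (rho 0.83, exact permutation p for r 0.032, adjusted 0.053). For Krt14 and Krt5 the sign depended on the tumors used. With nonirradiated tumor 4 and preirradiated tumor 3 kept in, r was 0.30 over all 8 tumors. Without preirradiated tumor 2 and nonirradiated tumor 1 it was 0.63, and over deviations from the group means 0.51. Over the same 6 tumors Krt10 spanned 6.07 to 6.31, Krt1 5.61 to 5.74 and Krt5 5.42 to 5.66. Each span was narrower than the olfactory receptor genes' limit of 0.30, so both correlations rest on small variation. Groups of 4 are too small for a correlation within each. The Krt14 values above those of nonirradiated tumors 1 to 3 thus came with Krt5 at 5.42 to 5.66 in preirradiated tumors 1, 2 and 4.

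**Figure D5:**
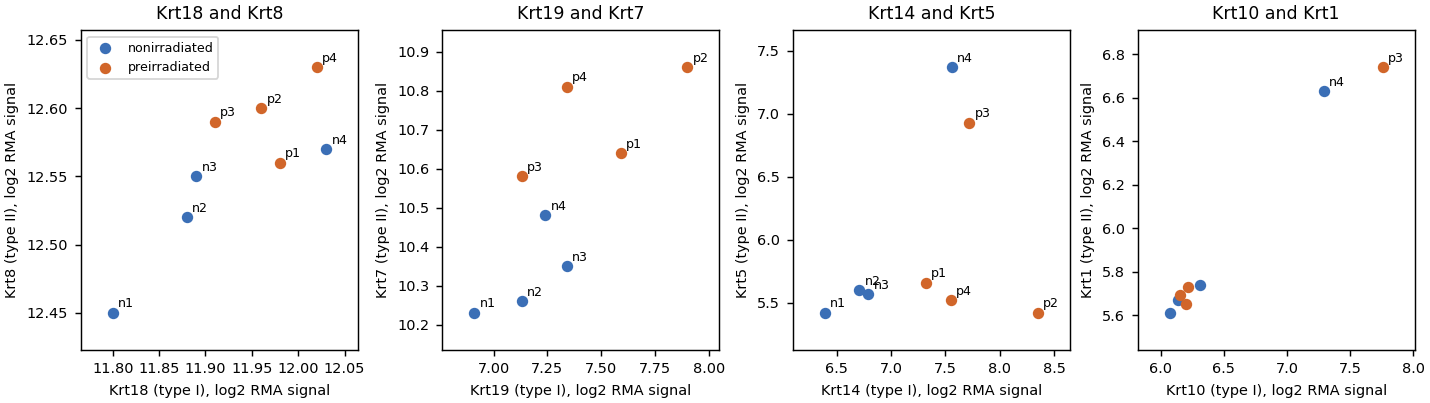
Log2 RMA signal of a type I keratin (x axis) against a type II keratin (y axis) in 4 pairs, 1 point a tumor, n for nonirradiated and p for preirradiated with the tumor number (in the Krt10 panel only n4 and p3 are numbered). Krt18 and Krt8 run together, Krt14 and Krt5 do not once n4 and p3 are set aside, and n4 and p3 stand apart in the Krt5 and Krt1 panels.

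Keratin filaments end at desmosomes, the spot junctions between epithelial cells, and their components were compared next. Of 14 measured desmosome genes 12 were higher in preirradiated tumors, with a median difference of 0.09, but 0 passed an unadjusted limma p of 0.05 or the study's filter. Among all named genes 47.4% were higher and 5.66% passed that p. Desmoplakin, Dsp, which ties keratins to the junction, was 8.34, 8.66, 8.41 and 9.11 against 9.02, 9.37, 8.88 and 8.66, a difference of 0.35 (SE 0.20). The desmosomal cadherin Dsg2 differed by 0.41 (SE 0.18, limma p 0.0529), the plakophilin Pkp2 by 0.28 (SE 0.13), the junction protein Perp by 0.35 (SE 0.19) and Dsc2 by 0.11 (SE 0.18). Dsp, Dsg2, Perp and Dsc2 were highest in preirradiated tumor 2, as was Krt14.

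At the linkers between keratins and other structures 2 of 10 genes had an unadjusted limma p of at most 0.05, both higher, against 5.66% of all named genes (2.39% as higher). Plectin, Plec, which links intermediate filaments to hemidesmosomes and to the cytoskeleton, was 9.11, 9.07, 9.17 and 9.06 against 9.32, 9.20, 9.47 and 9.56. The groups did not overlap, with a difference of 0.29 (SE 0.077, limma p 0.00572, adjusted 0.712), below the study's size limit. The crosslinker Macf1 differed by 0.09 (SE 0.037), again without overlap, and its p was above 0.05 in most of the alternatives run. Dst differed by 0.17 (SE 0.079), Col17a1 by 0.05 (SE 0.098), Ppl by 0.02 (SE 0.064) and Eppk1 by -0.06 (SE 0.063). Itga6 and Itgb4, the integrin that hemidesmosomes use, were 10.55 to 10.78 and 10.99 to 11.12 over all tumors.

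Of 15 other intermediate filament genes 1, lamin A/C (Lmna, a filament of the nuclear envelope), had an unadjusted limma p of at most 0.05, against 5.66% of all named genes. Its difference was 0.16 (SE 0.062). Vimentin, Vim, the filament of mesenchymal cells, was 12.98 to 13.07 over all tumors. Desmin, Des, and synemin, Synm, both muscle filaments, were highest in preirradiated tumors 1 and 3, the tumors high in muscle genes. Des reached 9.17 and 11.28 there, with 6.49 as the highest value elsewhere, and Synm reached 5.92 and 6.53, with 5.70 as the highest elsewhere. Nestin, Nes, differed by 0.13 (SE 0.074), and the nuclear lamins Lmnb1 and Lmnb2 ranged from 8.47 to 9.07 and from 6.84 to 7.32.

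Of 20 epithelial transcription regulators 0 passed an unadjusted limma p of 0.05 (smallest adjusted p 0.896). The splicing regulator Esrp1, kept in this list as an epithelial marker, had the widest range, 2.23, with its highest value in preirradiated tumor 2 and its lowest, 6.77, in preirradiated tumor 4. Klf4 differed by -0.15 (SE 0.089), Elf3 by -0.14 (SE 0.11), Klf5 by 0.11 (SE 0.10) and Sox9 by -0.02 (SE 0.13).

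The genes most like a keratin over the 8 tumors were taken from 495 named genes that are no keratins and had an SD of at least 0.3. For Krt14 they were Dsp (r = 0.876), Perp (0.837), Serpinb5 (0.804), Fam167a (0.796) and Tnnt2 (0.775). For Krt10 they were Lor (r = 0.989), Lce1a1 (0.987), Ly6g6c (0.979), Clca3a2 (0.960) and Trim29 (0.953). These rest in large part on nonirradiated tumor 4 and preirradiated tumor 3, which stand apart in Krt10: over the other 6 tumors r was 0.707 for Lor, 0.357 for Lce1a1, 0.871 for Ly6g6c, 0.473 for Clca3a2 and 0.199 for Trim29. For the genes named for Krt14 r over those 6 tumors was 0.802 to 0.914. For Krt8, which itself varied by only 0.18, they were Ibsp (r = 0.843), Snora16a (0.743), Acsbg1 (0.738), Snord53 (0.729) and Col5a2 (0.701). For Krt7, added after its values were seen, they were Tnnt2 (r = 0.898), Fam167a (0.876), Acsbg1 (0.869), Tnc (0.842) and Lamb3 (0.827). These values come from the same 8 arrays and are descriptions without a test.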

How the data were processed

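Each of 8 tumors gave total RNA for 1 Affymetrix GeneChip Mouse Gene 1.0 ST array. The deposited values are log2 signals per probe set, which the authors made by RMA with the affy package of Bioconductor 2.4, per the series' design text. The submitters' processing notes name R 2.15.3. The chip description file and its genome build are not given in the sources used here. RMA quantile-normalizes the arrays and understates changes near background.

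Of 34760 probe sets, 34738 had a mean of at least 4.0. Platform annotation gave 1 symbol to 21640, several to 1321 and none to 11799. Each of 19937 genes was represented by its single-symbol probe set of highest mean. Entrez IDs of all 48 keratins matched RefSeq symbols.

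All probe sets were fitted together with limma 3.58.1 in R 4.3.3 (lmFit, eBayes, two-sided), tested on simulated data. Permutation tests and correlations used pandas 2.3.3 and scipy 1.17.1. The number of arrays limits the precision.

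Members, classes, 7 partner lists, 7 cell type lists and the alternatives were chosen with earlier results of these data known. Named were all simple and basal keratins and, in each other class or list, genes past the study's filter, the 5 of largest range and the 3 of largest difference, with Krt6a, Krt6b and the 5 genes most like Krt8, Krt14 and Krt10. Other genes are named for their role or as markers, and were chosen after their values were seen. Alternatives covered the mean limit, variance model, normalization, centring, array weights, a replicate block, probe set choice, the size limit and left-out tumors.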

Additional observations from a re-analysis of the deposited data

Results flagged for a closer look

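In a group of 4 tumors a value counted as standing apart when its gap to the nearest tumor was a larger part of the group's whole range than Dixon's 95% critical value. Among 114 groups of 4 tested for the named genes, 33 had such a tumor, where chance flags about 1 in 20 groups. That rate does not hold here, since many of these genes were named for their large range over the 8 tumors, so the number of flags is a description. Nonirradiated tumor 4 stood apart on the high side for the keratins Krt5 (7.37), Krt1 (6.63), Krt79 (6.44), Krt71 (7.23), Krt86 (6.41), Krt25 (6.34), Krt72 (6.43), Krt33a (7.64) and Krt33b (8.27). It did so as well for Sprr1a (8.46), Lce1a1 (5.60), Krtap7-1 (10.43), Krtap8-1 (9.29), Krtap15 (6.72), Krtap3-3 (6.93) and Klf5 (10.21). Preirradiated tumor 3 stood apart on the high side for the keratins Krt5 (6.93), Krt15 (5.95), Krt10 (7.76), Krt77 (7.09), Krt1 (6.74), Krt79 (6.48), Krt71 (6.16) and Krt27 (6.03). It did so as well for Sprr1a (7.92), Lor (6.12), Lce1a1 (6.03), Krtap7-1 (8.96) and Krtap8-1 (8.16). The remaining flags were in nonirradiated tumor 3, low for Dsg2 (7.07), in nonirradiated tumor 1, low for Synm (5.41) and high for Nes (8.60), and in preirradiated tumor 1, high for Klf5 (10.42).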

How the results depend on the processing

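The number of arrays, 4 in a group, and 1 high tumor in each group limit what can be seen for basal, epidermal and hair keratins. The count of keratins past the study's filter as higher was 1, became 2 after a further quantile normalization or with a size limit of 0.3, and became 3 without both tumors high in muscle genes or without both tumors high in skin genes. It ran from 1 to 3 when 1 tumor was left out, and the count as lower was 0 in every setting run. In either direction 0.487% of all named genes passed the filter. That share was 0.291% without the muscle pair, 0.502% without the skin pair and 0.301% to 0.983% without 1 tumor. Keratins at an unadjusted p of at most 0.05 numbered 2, 5 without both tumors high in skin genes, and 2 to 4 without 1 tumor (4 without nonirradiated tumor 2). The share of all named genes was 5.66%, 3.9% without the skin pair and 3.97% to 7.55% without 1 tumor (5.17% without nonirradiated tumor 2). Keratins without overlap numbered 1 (3.64% of all named genes), 6 without either pair of tumors and 1 to 4 without 1 tumor, but smaller groups separate more often. All named genes then reached 10.7% without both tumors high in muscle genes, 9.13% without both high in skin genes and 5.39% to 8.30% without 1 tumor, against 12.5% of keratins without either pair, so these counts say little about the keratins. The shares over all named genes were added after seeing the data, as was likeness over 6 tumors. Krt19 passed an unadjusted p of 0.05 without both tumors high in muscle genes (0.47) or skin genes (0.49), and ran from 0.20 to 0.46 without 1 tumor. Krt18 passed without both tumors high in skin genes (0.13), and ran from 0.039 to 0.12 without 1 tumor. Krt20 turned to 0.037 without both tumors high in skin genes and ran from -0.083 to 0.028 without 1 tumor. Krt5 turned to 0.019 with array weights and to 0.0042 without both tumors high in skin genes, and ran from -0.46 to 0.35 without 1 tumor. Krt15 turned to -0.051 without both tumors high in muscle genes and ran from -0.069 to 0.14 without 1 tumor. The cause of these changes was not tested. Krt7 and Krt14 kept their direction and an unadjusted p of at most 0.05 in all 19 settings. Macf1 and Lmna lost theirs in some. Titles number the tumors 1 to 4 in both groups, but same-numbered tumors did not deviate together (r from -0.289 to -0.075), and with the replicate block the count past the study's filter was again 1, with Krt14 at 0.87 and Krt7 at 0.39. The block changed the call of no keratin.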
